A study of Homo sapiens with 7 samples.

Results

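The transcriptome of opto-PKR H4 cells after 480 min of continuous blue light was set against that after 240 min, with 1 library at each time. A gene was a member of the comparison when its symbol came no later than NME1-NME2 in alphabetical order, where the 480 min table ends, and when it had at least 20 transcript counts in either library. Of 11087 genes with a row up to that name, 7206 met both conditions and 3881 lay under the count minimum. H4 is an established human neuroglioma line. In every library the cells carried opto-PKR, in which the light-clustering protein Cry2Olig is fused to PKR, the kinase encoded by EIF2AK2. The 7 libraries of the series were lit for 0, 60, 120, 240, 480, 600 or 720 min and were otherwise of the same kind, so the 240 and 480 min libraries shared line, transgene, plate type and lamp and differed in minutes of light. The labels do not say whether the line is a single clone. Unlit cells harvested at 480 min and lit cells lacking the fusion were not analysed here, so length of illumination and hours in the plate cannot be told apart.

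PKR phosphorylates the translation initiation factor eIF2, which lowers protein synthesis in general while the transcription factor ATF4 is translated more. ATF4 and its partners then switch on genes for amino acid supply, tRNA charging, redox defence and, when the stress lasts, cell death, a programme called the integrated stress response (ISR). Stressed cells also transcribe immediate early genes, which need no new protein for their induction, encode short-lived messenger RNAs and feed into cytokine genes through factors such as AP-1 and NF-kB.

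Transcripts up to NME1-NME2 summed to between 3672662 and 5266123 counts per library, with 4637779 at 240 min and 5266123 at 480 min, the deepest library of the series, at 2.19 and 2.38 reads per UMI (unique molecular identifier). Levels are given in CPM, transcript counts brought to a common library total, taken over these genes only and after TMM scaling, and differences are log2 ratios after a prior count of 2 was added. Intervals are exact 95% Clopper-Pearson intervals of the ratio, and they cover counting error only. With 1 library a side there was no replicate and no test, so every difference below compares these libraries and not the conditions. In bulk RNA, fewer cells of a kind and less RNA per cell cannot be told apart. The lineage markers went only partly with the neuroglioma label. Of 8 glial markers, GFAP and FABP7 had no row and AQP4 had 0 counts in both libraries. The 3 that were compared, CNP, GJA1 and MOG, lay within 2-fold. The summed glial level was 182 CPM in the earlier and 166 CPM in the later library. Of 8 mesenchymal and glioma markers 7 were compared. With NES, they had a sum of 5700 CPM in the earlier and 5941 CPM in the later library. Endothelial markers had sums of 50.3 and 59.8 CPM in the same order, and myeloid markers 22.8 and 30.9 CPM. Lymphoid and red cell markers stood at or under 3.5 CPM in sum in both libraries.

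Between 240 and 480 min, 165 genes (2.29% of those compared) were at least 2-fold higher and 223 genes (3.09%) at least 2-fold lower, 388 genes (5.38%) in all. The median log2 ratio over all 7206 genes was 0.02, with 3716 genes above 0 and 3490 below, and 82.5% of genes lay within 1.5-fold. The sign counts of the lists below are to be read beside these. At least 4-fold, 21 genes were higher and 25 lower. For 64 of the higher and 89 of the lower genes the whole interval lay past 2-fold. Genes with low counts passed more easily: 11% of those under 20 CPM were 2-fold apart, against 4.2% between 20 and 100 CPM and 2.86% at 100 CPM or more. Among these abundant genes 23 were higher and 53 lower. At the boundary, MAP7D3 with 307 and 684 counts counted as higher and LOC643406 with 185 and 411 did not, while KLF9 with 3889 and 2144 counted as lower and MYT1L with 29 and 15 did not.

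**Figure D1:**
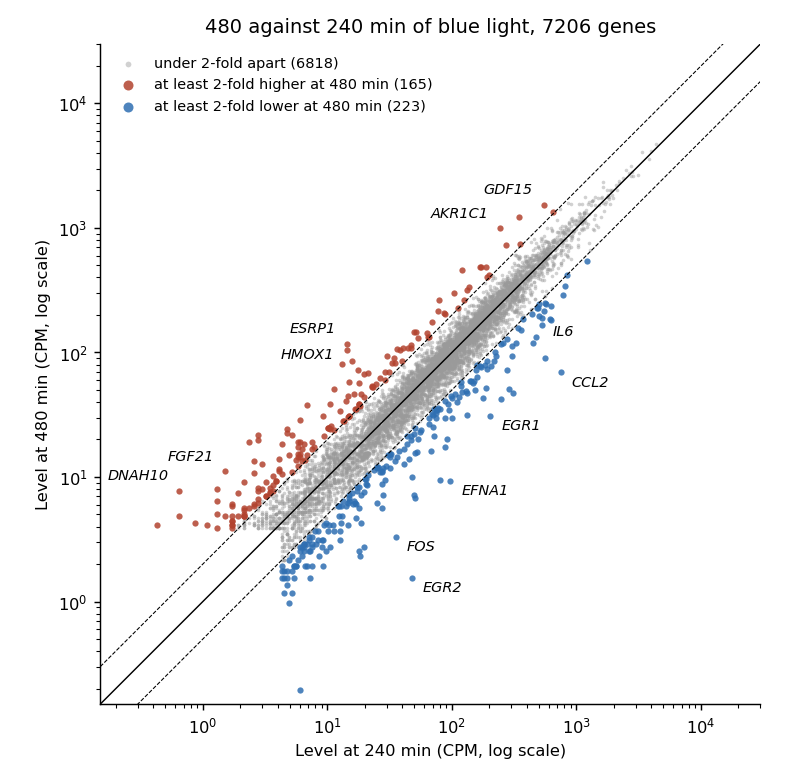
Level of each of 7206 genes at 240 min (x axis) and 480 min (y axis), in CPM on log scales, 1 library each. Solid line, equal levels; dashed lines, 2-fold. Red points are the 165 genes at least 2-fold higher at 480 min and blue points the 223 at least 2-fold lower; blue points reach farther from the line among abundant genes, with CCL2 at 746 and 69.1 CPM.

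The working name for this stretch of the time course is a plateau, and the gene counts did not bear that name out. Of the 6 steps between neighbouring times, 480 against 240 min had the highest share of genes at least 2-fold apart. The share was 3.14% at 60 against 0 min (2.48% higher and 0.662% lower), 2.87% at 120 against 60 min (0.909% higher and 1.96% lower), 2.13% at 240 against 120 min (1.44% and 0.692%), 0.961% at 600 against 480 min and 1.81% at 720 against 600 min (0.759% and 1.05%). The steps differ in length, at 60, 60, 120, 240, 120 and 120 min, and neighbouring steps share a library. The library at 480 min therefore stood closer to that at 600 min, 120 min later, than to that at 240 min. The stretch is called by its times below.

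**Figure D2:**
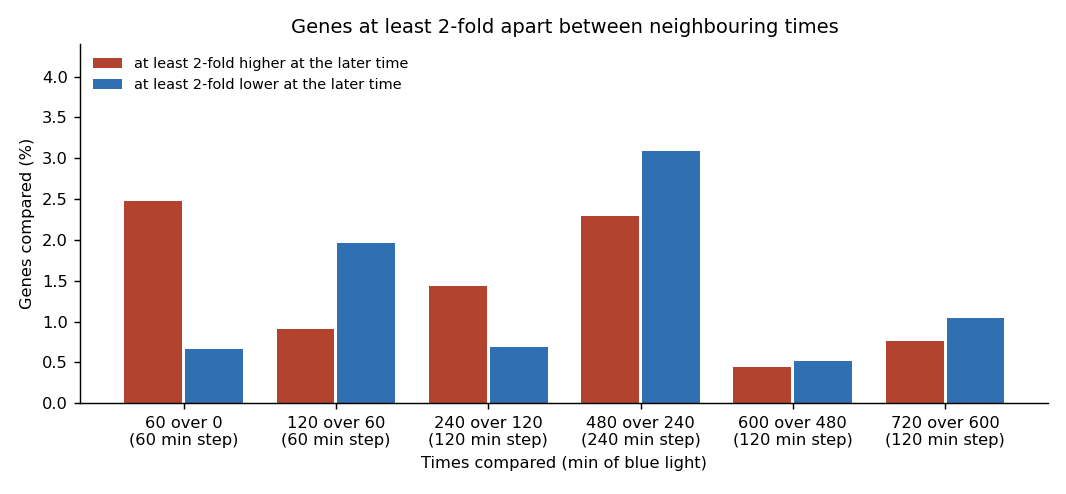
Share of the genes compared that were at least 2-fold higher (red) or lower (blue) at the later of 2 neighbouring times, in percent, with the length of each step under the bars. The bars at 480 over 240 min stand at 2.29% and 3.09%, and those at 600 over 480 min at 0.446% and 0.515%.

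Immediate early factors stood mostly lower at 480 min. Of 16 members compared, 10 were at least 2-fold lower at 480 than at 240 min, 0 were at least 2-fold higher, 15 had ratios below 0, and the median log2 ratio was -1.26, against 0.02 over all genes. EGR2, a zinc finger factor, stood at 2.46, 53.8, 108, 47.7, 1.55, 1.54 and 1.76 CPM at 0, 60, 120, 240, 480, 600 and 720 min. It went from 222 to 8 counts between 240 and 480 min, a log2 ratio of -4.62 (-6.17 to -3.94), the lowest of all genes compared. EGR1, of the same family, stood at 50.6, 531, 492, 204, 30.9, 25.7 and 28.7 CPM, a ratio of -2.71 (-2.97 to -2.48) between 240 and 480 min. Both were thus already below their highest level at 240 min. From 480 min on EGR1 lay below the unlit library. EGR2 had 8, 7 and 7 counts at those times and 11 in the unlit library, too few to tell these levels apart.

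Of the FOS and JUN family genes in the list, FOS, FOSB, FOSL2, JUN and JUNB were at least 2-fold lower, and FOSL1 (-0.17) and JUND (-0.56) were not. FOS stood at 8.28, 73.2, 90, 35.7, 3.3, 3.08 and 2.52 CPM over the 7 times, with 166 counts at 240 min and 17 at 480 min (-3.28, -4.25 to -2.71). JUNB, a dimer partner of FOS, was at 246 CPM at 240 min and 42.3 CPM at 480 min (-2.53, -2.76 to -2.33). JUN went from 615 to 184 CPM and stayed above its unlit level of 113 CPM. FOSL2 was at -1.37, FOSB at -1.30 (from 25 to 10 counts) and EGR3, of the EGR family, at -1.96 (from 23 to 5 counts). The small MAF proteins MAFF (-1.22) and MAFK (-1.06), which pair with other basic leucine zipper factors, were highest at 240 min itself, later than FOS, JUN and JUNB at 120 min. IER5, a stress-induced nuclear protein, was the only member of the list above 0, at 51.4 and 95 CPM (0.88, 0.66 to 1.12). EGR4 and ARC lay under the count minimum.

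The CArG box, bound by serum response factor, is the textbook control element of EGR1 and EGR2, and the stretches of their promoters that hold it are shown for that reason. RefSeq (GRCh38.p14) promoter windows of 250 bases before the start site were searched on both strands, and they were found for 11 of the 16 immediate early genes, too few to give a share. Among these 11, EGR1 and EGR2 held a CArG box, against 1.44% of 27305 promoters in the table and 1.86% of the 5536 genes compared that have one. The 150 bases before the start site follow 5′ to 3′, with CArG matches in capitals; EGR1 has 2 matches, which begin 105 and 83 bases before the start, and EGR2 has 1, in the third of its 3 windows, 71 bases before it.
EGR1, chr5:138465329-138465478, plus strand: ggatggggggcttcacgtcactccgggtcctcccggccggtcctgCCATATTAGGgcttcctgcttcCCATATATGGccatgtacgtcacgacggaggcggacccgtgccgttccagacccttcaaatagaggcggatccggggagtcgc
EGR2, chr10:62816367-62816516, minus strand: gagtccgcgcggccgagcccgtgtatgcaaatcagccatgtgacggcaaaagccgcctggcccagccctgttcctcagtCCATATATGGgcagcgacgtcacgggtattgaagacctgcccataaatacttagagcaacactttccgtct

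The list of mitogen-activated kinase phosphatases and feedback genes holds 10 DUSP phosphatases, ERRFI1 and GADD45B. Of these 12 members, 5 were at least 2-fold lower and 1 higher, with a median of -0.84. GADD45B, an activator of stress kinases, stood at 29.1, 129, 308, 309, 47, 36.7 and 29.7 CPM over the 7 times (-2.71, -2.92 to -2.52, between 240 and 480 min). ERRFI1, which inhibits the EGF receptor, was at 808 CPM at 240 min and 343 CPM at 480 min (-1.24, -1.32 to -1.16). The dual-specificity phosphatases DUSP2 (-1.72), DUSP8 (-1.57) and DUSP10 (-1.25) were lower. DUSP4, a nuclear phosphatase of ERK, was higher, at 53.3, 60.5, 56, 30.1, 93.4, 106 and 154 CPM (1.62, 1.36 to 1.92). Its lowest level was at 240 min, the time at which GADD45B and ERRFI1 were at or near their highest.

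Kruppel-like factors, zinc finger regulators of growth and differentiation, had 4 of 13 members at least 2-fold lower, 0 higher and a median of -0.51. KLF6 was at 530 and 189 CPM (-1.49), KLF10 at 775 and 289 CPM (-1.42), KLF7 at 170 and 76.5 CPM (-1.15), and KLF9 at 836 and 416 CPM (-1.0, -1.08 to -0.93), on the boundary. All 6 compared members of the list of ID proteins and BMP feedback had ratios below 0, and ID2, an inhibitor of basic helix-loop-helix factors, passed 2-fold at 329 and 120 CPM (-1.45, -1.59 to -1.32). BHLHE40, a repressor of the circadian clock that is also induced by hypoxia, stood at 91.5, 351, 534, 554, 89.5, 77.2 and 61 CPM (-2.62, -2.77 to -2.48). Of 17 hypoxia-factor targets compared, BHLHE40 and EGLN3 (-1.31) were at least 2-fold lower, 0 were higher, and the median was 0.06. CYR61, a matrix signalling protein and YAP target, was the only member of 19 in that list past 2-fold, at 339 and 158 CPM (-1.10, -1.23 to -0.98).

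**Figure D3:**
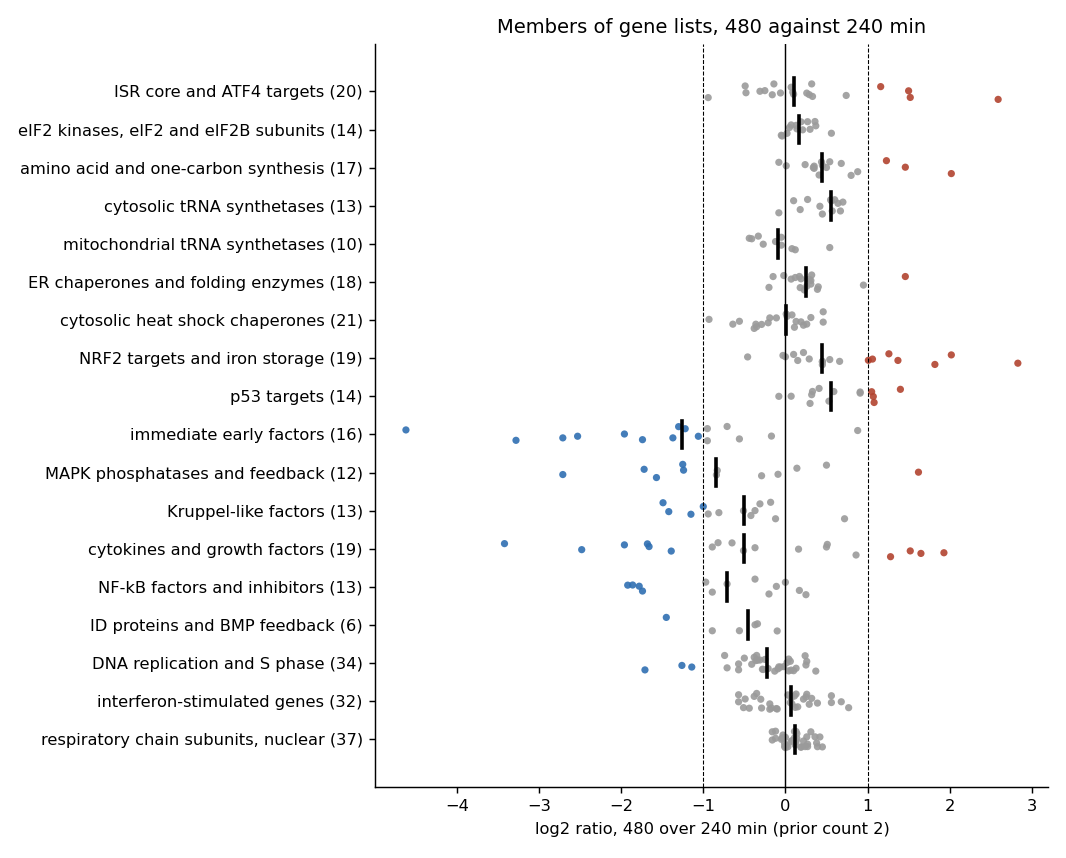
Log2 ratio of 480 over 240 min for each compared member of 18 gene lists (x axis), with the number of members compared after each name. Black bars are list medians, dashed lines 2-fold, red and blue points members at or past it. The immediate early factors lie to the left with a median of -1.26, while the cytosolic tRNA synthetases lie within 2-fold with a median of 0.55.

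Cytokines and growth factors divided. Of 19 compared, 6 were at least 2-fold lower and 4 at least 2-fold higher, with a median of -0.51. CCL2, which attracts monocytes, stood at 171, 306, 574, 746, 69.1, 53.3 and 43.6 CPM over the 7 times, and went from 3472 to 356 counts between 240 and 480 min (-3.42, -3.59 to -3.27). The vasoconstrictor gene EDN1 was at 289 and 51.3 CPM (-2.48, -2.69 to -2.30). LIF, of the IL-6 family, was at 279 and 71.7 CPM (-1.96). All 3 were highest at 240 min, as were 57.8% of the 223 lower genes, and CCL2 was below its unlit level from 480 min on. IL6 itself stood at 11.6, 80.4, 200, 530, 165, 129 and 106 CPM (-1.68, -1.80 to -1.57), so it remained above the unlit library at 720 min. CCL20 (-1.66) and CSF1 (-1.39) were lower too.

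The 4 cytokine genes that went the other way were highest at 480 min among the 7 times. The choice by this ratio favours such a peak, and 31.5% of all 165 higher genes had it. FGF2, a fibroblast mitogen, stood at 34.2, 35.5, 64, 104, 300, 268 and 215 CPM (1.52, 1.38 to 1.68, between 240 and 480 min). CXCL3, a neutrophil chemokine, was at 47.3 and 115 CPM (1.28, 1.06 to 1.51). IL1A, the alarmin interleukin-1 alpha, was at 17.8 and 56.7 CPM (1.65, 1.31 to 2.04). AREG, a ligand of the EGF receptor, had 14 and 65 counts (1.93, 1.22 to 3.02). CSF2, CXCL1, CXCL5, CXCL6, EREG and IL1B lay under the count minimum, and CSF3 and IL33 had no row.

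Of the NF-kB factors and inhibitors, 4 of 13 were at least 2-fold lower, 0 higher, and the median was -0.71. NFKBIA, the inhibitor that NF-kB itself induces, stood at 87.5, 165, 190, 188, 51.5, 45.8 and 60.5 CPM (-1.86, -2.07 to -1.67). BCL3, an atypical inhibitor of the family, was at 450 and 119 CPM (-1.92, -2.05 to -1.79), and IRF1, an interferon regulatory factor, at 627 and 182 CPM (-1.78, -1.89 to -1.67). CD83, a surface protein of activated immune cells, had 68 and 21 counts (-1.74). NFKB1, the p105 subunit gene, was at 182 CPM at both times (0.00, -0.14 to 0.14), so the subunit and its inhibitor did not move together. A kappa B site, searched on either strand, was found before the start site of 5 of the 11 genes with a RefSeq promoter, NFKB1, NFKB2, NFKBIA, NFKBIB and NFKBIZ. The site was in 0.645% of the 27305 promoters and in 0.777% of the 5536 genes compared that have one. The members that hold it thus include NFKBIA, which was lower, and NFKB1, which was not. The 150 bases before the NFKBIA start site (GRCh38.p14) are shown because this gene was the lowest among the 5, with the match in capitals, 81 bases before the start.
NFKBIA, chr14:35404750-35404899, minus strand: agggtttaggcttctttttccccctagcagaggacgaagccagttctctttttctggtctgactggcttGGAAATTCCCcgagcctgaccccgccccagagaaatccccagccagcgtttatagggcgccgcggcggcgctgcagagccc

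**Figure D4:**
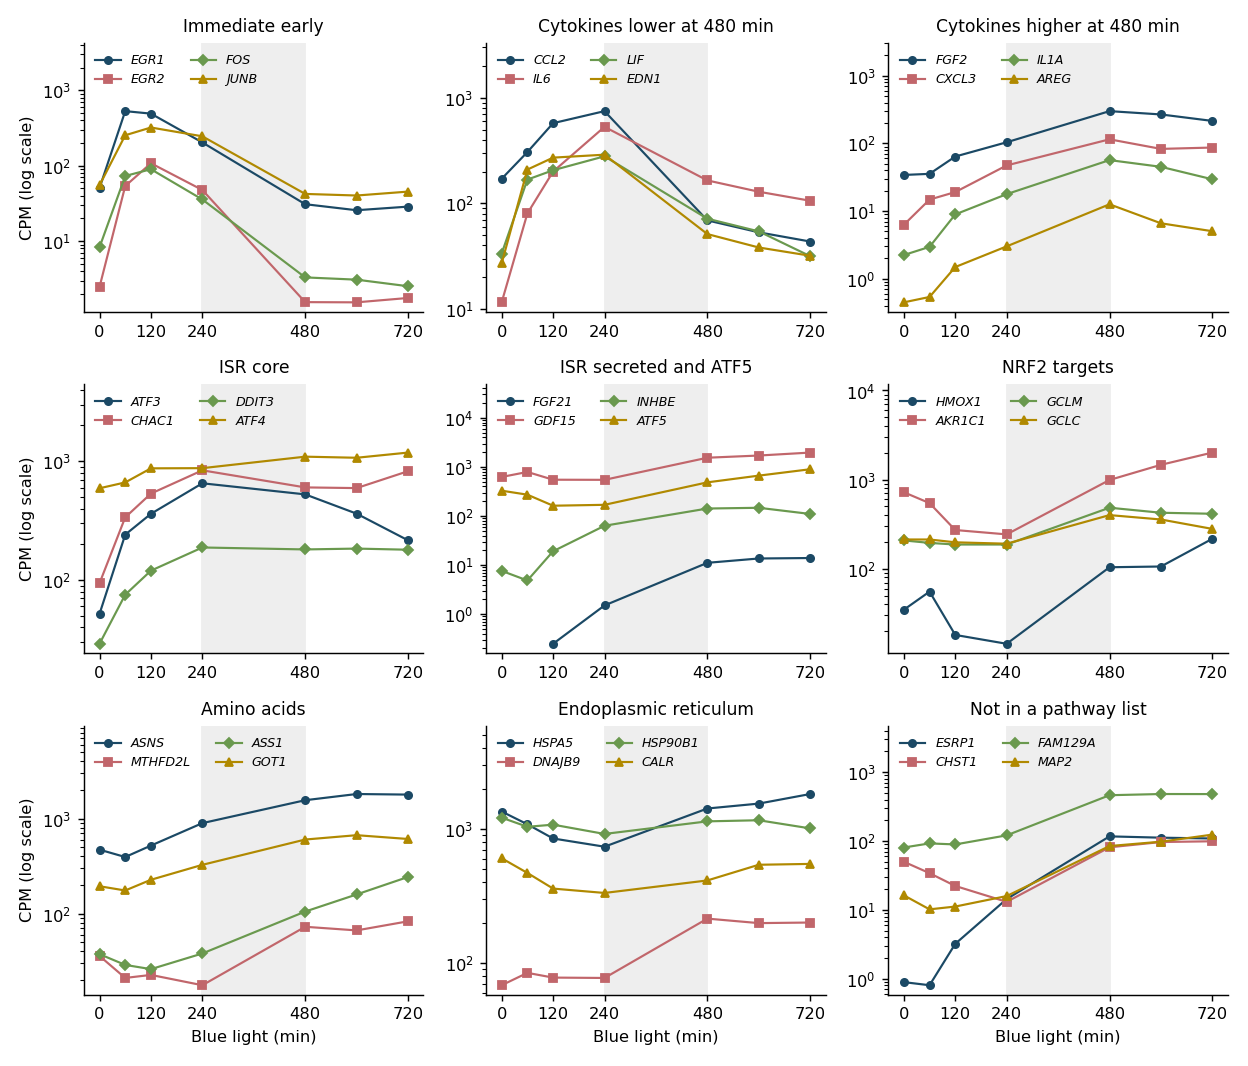
Levels of 36 genes in CPM (y axis, log scale) against minutes of blue light (x axis), 1 library per point, with the stretch from 240 to 480 min shaded. FGF21 had 0 counts at 0 and 60 min and is not drawn there. Immediate early genes peak at 60 or 120 min and lie at their 480 min level thereafter, ATF4, DDIT3, ATF3 and CHAC1 differ by less than 2-fold across the shaded stretch while FGF21, GDF15, ATF5 and INHBE differ by more, and the NRF2 targets are lowest at 240 min or, for GCLM, at 120 and 240 min alike.

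The core of the ISR divided into 16 members that differed by less than 2-fold and 4 that were at least 2-fold higher, out of 20 compared. None was 2-fold lower, the median was 0.10, and the ratios ran from -0.94 to 2.59. ATF4 was at 874 CPM at 240 min and 1092 CPM at 480 min (0.32, 0.26 to 0.38). DDIT3, which encodes the pro-death factor CHOP, was at 188 and 181 CPM (-0.06, -0.19 to 0.08), and stood between 180 and 188 CPM at every time from 240 to 720 min. GADD45A, a growth-arrest gene, was at 2183 and 2288 CPM (0.07, 0.03 to 0.11). HERPUD1, of the endoplasmic reticulum, was at 0.10 and CEBPB, an ATF4 partner, at -0.14.

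Within that list 8 members lay below 0, DDIT3 and CEBPB among them. ATF3, a repressor induced by ATF4, stood at 51.9, 241, 361, 652, 526, 362 and 216 CPM (-0.31, -0.39 to -0.24, between 240 and 480 min). CHAC1, which degrades glutathione, was at 838 and 602 CPM (-0.48, -0.55 to -0.41). NFIL3, a basic leucine zipper repressor, was at 431 and 224 CPM (-0.94, -1.05 to -0.84). CREBRF was at -0.49, DDIT4, an inhibitor of mTORC1, at -0.25, and JDP2 at -0.16 with an interval that spans 0 (-0.47 to 0.15). None of the 8 was 2-fold lower. On the other side of 0, but also under 2-fold, were MAP1LC3B, the autophagosome protein LC3B (0.74, 0.68 to 0.81), BBC3, the death protein PUMA (0.33), CEBPG (0.29), the oxidase gene ERO1L (0.26) and KLHL24 (0.09, -0.29 to 0.48).

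The 4 members that passed 2-fold were ATF5 and 3 genes for secreted factors. FGF21, a metabolic hormone, had 0 counts at 0 and 60 min, 7 at 240 min and 57 at 480 min (2.59, 1.74 to 4.26), and stood at 11.1, 13.6 and 13.9 CPM at 480, 600 and 720 min. GDF15, a stress cytokine that acts on appetite, stood at 625, 790, 549, 546, 1542, 1709 and 1963 CPM (1.5, 1.43 to 1.56). With UMI counts its ratio was 0.74, under 2-fold, and with read counts 1.96. ATF5, a relative of ATF4 that is translated in the same way, stood at 328, 272, 162, 169, 485, 665 and 898 CPM (1.52, 1.40 to 1.64). INHBE, an activin subunit of liver stress, was at 63.2 and 142 CPM (1.16, 0.97 to 1.37). GDF15 and ATF5 were thus below their unlit level at 240 min and above it from 480 min, whereas FGF21 and INHBE were above it at both times.

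The kinases and targets at the head of the pathway differed little. Among 14 genes for eIF2 kinases, eIF2 and its exchange factor eIF2B, 0 were 2-fold apart in either direction, and the median was 0.17. EIF2AK2 had the largest ratio, at 358, 217, 164, 128, 189, 237 and 247 CPM over the 7 times (0.56, 0.41 to 0.71). It was lowest at 240 min. Reads of the transgene and of the cell's own EIF2AK2 gene were not told apart in these counts. EIF2S2, an eIF2 subunit, followed at 0.37 and EIF2AK4, the amino acid sensor GCN2, at 0.36 (0.13 to 0.60). The 35 other initiation and elongation factors had a median of 0.22, with EIF4EBP1, a cap-binding inhibitor, at 127 and 222 CPM (0.80, 0.66 to 0.95) and EEF2K, the kinase that slows elongation, at 110 and 60 CPM (-0.86, -1.08 to -0.66).

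Amino acid and one-carbon genes, most of them ATF4 targets, stood higher at 480 min. Of 17 compared, 16 had ratios above 0, 3 were at least 2-fold higher and 0 lower, with a median of 0.45. MTHFD2L, a mitochondrial folate enzyme, stood at 35.8, 21, 22.6, 17.6, 72.6, 66.5 and 82.9 CPM (2.02, 1.70 to 2.41). ASS1, argininosuccinate synthase, was at 38 and 105 CPM (1.46, 1.22 to 1.72) and reached 243 CPM at 720 min. ALDH1L2, a mitochondrial formyltetrahydrofolate dehydrogenase, was at 35 and 82.6 CPM (1.23, 0.97 to 1.51). Below 2-fold came GOT1, aspartate aminotransferase (0.88, 0.80 to 0.97), and ASNS, asparagine synthetase, at 471, 394, 520, 896, 1562, 1815 and 1790 CPM (0.80, 0.75 to 0.86). ASNS and GOT1 were already above the unlit library at 240 min, while MTHFD2L was at its lowest there.

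Cytosolic tRNA synthetases, which charge tRNAs with amino acids, gave the highest median among lists of at least 10 members apart from p53 targets: 12 of 13 were above 0 and the median was 0.55, though 0 passed 2-fold. NARS, for asparagine, was at 469 and 759 CPM (0.70, 0.62 to 0.77), EPRS, for glutamate and proline, at 521 and 828 CPM (0.67), MARS, for methionine, at 384 and 598 CPM (0.64) and GARS, for glycine, at 1168 and 1766 CPM (0.60, 0.55 to 0.64). Their mitochondrial counterparts did not share this: 3 of 10 lay above 0, the median was -0.09 and the range was -0.44 for AARS2 to 0.54 for CARS2. With UMI counts in place of collision-corrected transcripts, the cytosolic median was 0.35. The C/EBP-ATF core (TGATGNAA, either strand), through which ATF4 acts on amino acid genes, was found before the start of ASNS, BCAT1, GOT1 and MTHFD1L. The synthetase genes AARS and IARS held it too, as did 3.89% of all promoters and 2.71% of the 5536 genes compared that have one. With promoters for 13 of 17 and 9 of 13 members no share is given for the lists. The 150 bases before the ASNS start (GRCh38.p14, the first of 2 windows) are shown as the textbook case, with the match in capitals, 68 bases before the start.
ASNS, chr7:97872409-97872558, minus strand: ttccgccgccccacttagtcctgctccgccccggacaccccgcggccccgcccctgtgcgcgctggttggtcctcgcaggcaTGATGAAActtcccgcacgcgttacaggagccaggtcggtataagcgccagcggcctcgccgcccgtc

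Chaperones and folding enzymes of the endoplasmic reticulum, targets of the unfolded protein response that runs beside the ISR, were higher by small amounts. Of 18 compared, 15 lay above 0, against 3716 of all 7206 genes, and the median was 0.25, against 0.02. Only 1 was at least 2-fold higher and 0 were lower, where 5.38% of all genes were 2-fold apart. DNAJB9, a co-chaperone of BiP, stood at 68.5, 84.7, 78.1, 77.6, 215, 199 and 201 CPM (1.46, 1.30 to 1.65). HSPA5, BiP itself, stood at 1352, 1086, 851, 739, 1424, 1549 and 1826 CPM (0.95, 0.89 to 1.01). HSPA5 was therefore lowest at 240 min and back above the unlit level at 480 min, while DNAJB9 had been near level until 240 min. HSP90B1 and CALR were both at 0.31, ERP29 at 0.40 and FKBP2 at 0.39.

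The ER stress element, searched on either strand and read by ATF6, was found before the start of 6 of the 17 chaperone genes with a RefSeq promoter, 35.3%. These were CALR, CANX, CRELD2, ERO1LB, HSP90B1 and HSPA5, against 0.0916% of 27305 promoters and 0.163% of the 5536 genes compared that have one. The log2 ratios of these 6 genes ran from 0.07 for CRELD2 to 0.95 for HSPA5. DNAJB9, the only member past 2-fold, had no match in its window. The part of the element in these ratios was not tested. The 150 bases before the HSPA5 start (GRCh38.p14) show the element in capitals, 66 bases before the start. In the 5 promoters printed here no match overlapped a match of another pattern searched.
HSPA5, chr9:125241344-125241493, minus strand: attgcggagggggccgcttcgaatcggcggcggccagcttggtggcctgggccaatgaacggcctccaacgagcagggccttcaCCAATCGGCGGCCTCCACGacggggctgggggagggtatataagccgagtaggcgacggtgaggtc

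Other chaperone systems had no member past 2-fold. Genes of degradation from the endoplasmic reticulum had 0 of 16 past 2-fold and a median of -0.01, with DERL1 at 0.90 (0.70 to 1.10) and the sensor ATF6 at 0.61 (0.47 to 0.76). Cytosolic heat shock chaperones had 0 of 21 past 2-fold, a range of -0.93 to 0.46 and a median of 0.01, which was -0.10 with UMI counts. HSPH1, a nucleotide exchange factor of HSP70, was at 680 and 436 CPM (-0.64, -0.72 to -0.56) and HSF2, a heat shock factor, at -0.56. All 7 CCT chaperonin subunits lay between 0.15 and 0.32, though CCT6A lay below 0 with UMI counts. LONP1, the mitochondrial protease that ATF4 can induce, was at 113 and 204 CPM (0.84, 0.69 to 1.0), the highest of 12 mitochondrial chaperones and proteases, whose median was 0.06.

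Targets of NRF2, the regulator of antioxidant and detoxifying genes, included 7 of 19 at least 2-fold higher and 0 lower, with a median of 0.45. HMOX1, haem oxygenase, stood at 34.7, 55.4, 18.1, 14.4, 104, 106 and 217 CPM over the 7 times, 67 counts at 240 min and 538 at 480 min (2.83, 2.49 to 3.25). GCLM, the modifier subunit of the enzyme that opens glutathione synthesis, stood at 208, 195, 187, 187, 484, 425 and 414 CPM (1.37, 1.26 to 1.49), and GCLC, its catalytic subunit, at 213, 213, 198, 191, 400, 357 and 280 CPM (1.06, 0.95 to 1.18). Both glutathione subunits were thus level from 0 to 240 min and apart only from 480 min, whereas HMOX1 was below its unlit level at 240 min.

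The aldo-keto reductases AKR1C1 and AKR1C2, which reduce steroids and lipid aldehydes, shared the pattern of HMOX1. AKR1C1 stood at 722, 545, 272, 243, 991, 1466 and 2011 CPM (2.02, 1.93 to 2.12) and AKR1C2 at 952, 739, 400, 346, 1219, 1803 and 2383 CPM (1.82, 1.74 to 1.90). With UMI counts their ratios were 1.41 and 1.12. AKR1C3 was on the boundary (1.01, 0.61 to 1.46), and AKR1B10 was at 132 and 317 CPM (1.26, 1.12 to 1.39). The AKR1C genes are near-identical copies, and the labels do not say how reads that fit several of them were counted, so their separate levels are uncertain. NFE2L2, which encodes NRF2, was at 639 CPM at 240 min and 465 CPM at 480 min (-0.46, -0.54 to -0.38), the reverse of its targets. The iron store genes FTH1 (0.22) and FTL (0.10) were within 2-fold.

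Targets of p53, the tumour suppressor that halts division after damage, had 4 of 14 at least 2-fold higher, 0 lower and a median of 0.56, the highest of these lists. CDKN1A, the cell cycle inhibitor p21, stood at 498, 355, 289, 274, 725, 692 and 745 CPM (1.40, 1.31 to 1.5). BAX, a pore-forming death protein, had 84 and 195 counts (1.05, 0.69 to 1.46), FDXR, a mitochondrial reductase, 84 and 199 (1.08) and EDA2R, a TNF receptor relative, 84 and 198 (1.07). MDM2, the ligase that degrades p53, was at 127 and 191 CPM (0.59, 0.45 to 0.74). In the BCL2 family, 1 of 16 was higher, again BAX, and 2 were lower, BIK (-1.82, from 24 to 6 counts) and BMF (-1.37, from 24 to 9).

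The cell cycle lists moved less. Among 34 genes of DNA replication 3 were at least 2-fold lower, 0 higher and 23 below 0, with a median of -0.23. The repressor E2F8 stood at 52.9 and 15.9 CPM (-1.71, -2.11 to -1.36), the activator E2F2 at 55.9 and 23.1 CPM (-1.26) and the helicase subunit GINS1 at 76.3 and 34.4 CPM (-1.14). Mitosis and spindle genes had a median of -0.05 over 40 members, and the only 1 past 2-fold was INCENP, with 15 and 36 counts (1.03, 0.21 to 2.09). MGP, a matrix inhibitor of calcification, was the only 1 of 26 matrix genes past 2-fold, at 94.8 and 34.6 CPM (-1.44, -1.71 to -1.2), and ITGB4 the only 1 of 11 integrins, from 28 to 14 counts (-1.04, -2.19 to -0.17).

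In the lists that follow every member lay within 2-fold. They were 72 mitochondrial ribosomal proteins (median 0.10), 37 nuclear respiratory chain subunits (0.12), 23 nucleolar biogenesis factors (0.13) and 32 interferon-stimulated genes (0.07). To these came 25 sterol and fatty acid genes (-0.05, range -0.81 to 0.94) and 23 regulators of mRNA decay (-0.11, range -0.33 to 0.91). Others were 21 autophagy and lysosome genes (0.18), 14 histones (-0.03), 9 glycolytic enzymes (0.19) and 6 genes of the aryl hydrocarbon receptor (-0.21). The last list held the metallothioneins MT1X (ratio 0.21) and MT2A (0.00) with their regulator MTF1 (-0.61). The interferon-stimulated list is the family to which EIF2AK2 belongs, and IFIT2 (0.77) and IFIT3 (0.68) were its highest members. Genes of the mitochondrial genome had no row. H19 was the only 1 of 10 long noncoding transcripts past 2-fold, from 20 to 8 counts (-1.26). CDK8, the Mediator kinase, was the only 1 of 29 Mediator genes, from 3 to 25 counts (2.32, 1.2 to 5.28), and its level of 4.86 CPM at 480 min was matched at no other time, the next highest being 2.27 CPM at 720 min.

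A pathway list held 15.8% of the higher and 18.4% of the lower genes, against 10.5% of all genes compared, and 139 higher and 182 lower genes were in none. The lists were chosen with earlier results of these data known, so these shares do not measure enrichment. ESRP1 had the highest lower bound of all genes. It encodes an RNA-binding protein that sets epithelial splicing, and stood at 0.895, 0.807, 3.22, 14.4, 117, 112 and 109 CPM (2.98, 2.65 to 3.41). ESRP1 stood near its 480 min level at the 2 later times. MAP2, a microtubule protein of dendrites, stood at 16.3, 10.2, 11.2, 15.9, 84.7, 97.9 and 124 CPM (2.38, 2.05 to 2.79). These 2 genes are markers of other cell types, so their lists were read as a whole. Epithelial markers had a sum of 454 CPM before and 720 CPM after, with 8 of 26 compared and 6 of these above 0. ESRP1 was higher and GRHL1 (-1.36) lower by at least 2-fold, and the keratin genes KRT18 (0.73), KRT17 (0.54), KRT8 (0.17) and KRT7 (-0.53) lay within it. At 600 against 120 min 5 of the 8 were at least 2-fold higher, ESRP1 (4.92), KRT17 (2.46), KRT7 (1.15), DSG3 (1.04) and KRT8 (1.03), and GRHL1 (-1.16) was lower. At 240 and 480 min CDH1, DSP and IVL had 0 counts and EPCAM had 1 and 2. The part of other cell types in these values was not tested. Neuronal markers summed to 28.4 and 111 CPM, with MAP2 and NCAM1 (1.19) higher and DCX and NEFM at 0 in both.

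Further genes among the 20 with the highest lower bounds follow. CHST1, a sulfotransferase of carbohydrate chains, stood at 50.1, 34.2, 22.3, 13.1, 81.2, 96.8 and 99.3 CPM (2.59, 2.24 to 3.04). It was lowest at 240 min, like HMOX1 and 42.4% of the 165 higher genes. FAM129A, a stress-induced protein also called niban, stood at 80.6, 92.5, 89.3, 121, 463, 482 and 481 CPM (1.94, 1.81 to 2.08). INHBB, an activin subunit, had 11 and 99 counts (2.82), and HKDC1, a hexokinase relative, 13 and 102 (2.66). FAM129A was above its 0 min level at 240 min, whereas CHST1 and INHBB were below theirs.

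Several of the higher genes had hardly been detected in the unlit library. KLHDC7B stood at 0.224 CPM at 0 min and at 4.73 and 24.3 CPM at 240 and 480 min (2.27, 1.70 to 3.09), the dopamine receptor gene DRD5 at 0.671, 6.02 and 28.7 CPM (2.18), and DNAH10, a dynein of cilia, at 0.671, 0.645 and 7.77 CPM (2.96, 1.94 to 5.93). In all, 12 of the 165 higher genes and 22 of all 7206 genes compared had at most 3 counts at 0 min. Such a gene can meet the count minimum through the later library alone, as DNAH10 did with 3 and 40 counts. CLGN, a calnexin relative (2.13), GPR1, a chemerin receptor (1.73), ANK2, a membrane adaptor (1.92), LOC100505633 (2.40) and LOC643723 (2.17) were also among the 20 genes with the highest lower bounds.

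Of the lower genes named by their upper bounds, EFNA1, a ligand of Eph receptors, stood at 25.1, 31.5, 92.7, 97.1, 9.32, 7.26 and 7.05 CPM (-3.33, -3.84 to -2.95). The bradykinin receptor genes BDKRB2 (-2.67, 91 and 14 counts) and BDKRB1 (-2.65, 84 and 13 counts), the adrenergic receptor gene ADRB1 (-2.15, 423 and 104 counts) and the activation antigen CD69 (28 and 1 counts) were all among the 20 with the lowest upper bounds. IRAK2, a kinase below the interleukin-1 receptor (-2.23), and CEBPD, an inflammatory transcription factor (-2.04, -2.27 to -1.83), were also there. C8orf4 (-3.02), C10orf10 (-2.83), GAS1, a growth-arrest protein (-2.71), LOC729950 (-2.77) and CSRNP1 (-2.32) completed them.

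The same genes were then read in libraries that took no part in choosing them. At 600 against 120 min, 112 of the 165 higher genes (67.9%) were at least 2-fold higher and 1, MGARP (-1.12), was at least 2-fold lower, where 4.51% of all genes compared were higher. Of the 223 lower genes, 151 (67.7%) were at least 2-fold lower and 0 higher, where 4.61% of all were lower. At 720 against 60 min, 113 of the higher genes (68.5%, against 4.95% of all) and 130 of the lower genes (58.3%, against 5.88%) were apart in the same direction. Over the genes that met the count minimum in a pair itself, 4.77% were higher and 4.64% lower (9.41% in all) at 600 against 120 min, and 5.28% were higher and 5.97% lower (11.2% in all) at 720 against 60 min. These pairs are farther apart in time, and they share no library with the 480 and 240 min pair or with each other. Of the 20 genes with the highest and the 20 with the lowest bounds, all had the same direction in both pairs, and all were past 2-fold except CD69 (-0.60) at 720 against 60 min. CDK8 did not repeat: its ratio was 0.04 (-1.75 to 1.90) at 600 against 120 min.

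**Figure D5:**
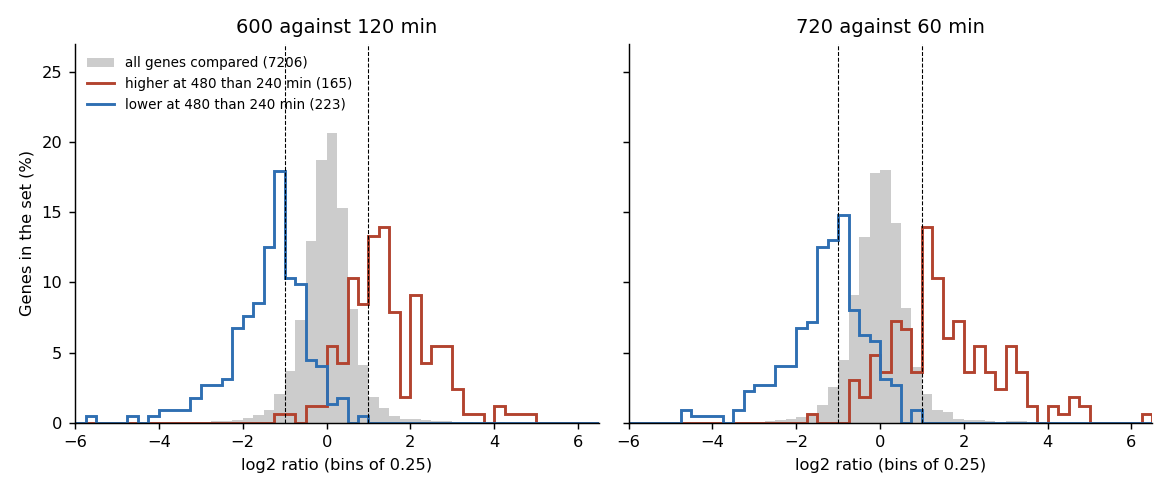
Distribution of log2 ratios in libraries not used to choose the genes, at 600 against 120 min (left) and 720 against 60 min (right), as percent of each set in bins of 0.25. Grey, all 7206 genes; red, the 165 genes higher and blue, the 223 genes lower at 480 than 240 min; dashed lines, 2-fold. The red and blue sets lie on opposite sides of the grey one, with medians of 1.32 and -1.25 at 600 against 120 min.

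Some of the lists were read in the same pairs. The median of the immediate early factors was -1.54 at 600 against 120 min, with 10 of 16 at least 2-fold lower, that of the NRF2 targets 0.48 with 6 of 19 higher, and that of the p53 targets 0.55 with 4 of 14 higher. Amino acid genes had a median of 1.09, with 9 of 17 at least 2-fold higher, as ASNS (1.80, 1.74 to 1.87) joined MTHFD2L (1.54). The ISR core had 6 of 20 higher and a median of 0.47, and ATF3 was at 0.00 (-0.10 to 0.11). IL6, 2-fold lower between 240 and 480 min, was at -0.63 (-0.79 to -0.48), and the cytokine list as a whole had a median of 0.42, of the opposite sign to its -0.51 at 480 against 240 min. The CCT chaperonin, with 7 of 7 above 0 at 480 against 240 min, had 5 of 7 below 0 and a median of -0.06. DNA replication genes had a median of -0.63 with 32 of 34 below 0, and mitosis and spindle genes -0.30 with 36 of 40 below 0.

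At 720 against 60 min the medians were -1.07 for the immediate early factors (9 of 16 at least 2-fold lower), 0.42 for the NRF2 targets (6 of 19 higher), 1.41 for the amino acid genes (10 of 17 higher), 0.90 for the ISR core (9 of 20 higher) and 0.44 for the cytokines. The p53 targets had a median of 0.33 there, with 2 of 14 higher, 1 lower and 8 above 0. The median was -0.63 for DNA replication, with 33 of 34 below 0, and -0.41 for mitosis and spindle genes, with 36 of 40 below 0. The ER chaperones had a median of -0.03 with 10 of 18 below 0 at 720 against 60 min. At 600 against 120 min their median was 0.17 with 13 of 18 above 0. They thus kept the direction of 480 against 240 min in 1 of the 2 pairs. CCT had a median of -0.12 with 5 of 7 below 0 at 720 against 60 min, and kept its direction in neither pair.

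Over the whole course the 2 sets of genes differed in where they stood against the unlit library. The median level of the 165 higher genes was 9.40, 8.88, 8.93, 9.24, 24.5, 26.2 and 26.2 CPM at the 7 times. That of the 223 lower genes was 19.9, 25.8, 32.5, 32, 11.8, 11.9 and 10.3 CPM. The step between 240 and 480 min in both series is fixed by the choice of the genes. Taking 120 and 600 min, which did not enter the choice, 79.4% of the lower genes were above their 0 min level at 120 min (49.7% of all genes). At 600 min 67.7% were below that level (49% of all), with 63 of 223 (28.3%) at least 2-fold below, against 4.36% of all genes. Of the higher genes, 47.9% were above their 0 min level at 120 min and 85.5% at 600 min, against 49.7% and 51% of all. Between 480 and 600 min, 98.2% of the higher and 95.5% of the lower genes stayed within 2-fold, against 99.2% of all genes; this last comparison shares the 480 min library with the choice of genes.

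Short-lived messenger RNAs often carry AU-rich nonamers (TTATTTATT) in the 3' untranslated region, and the sets were compared for that motif in protein-coding transcripts (GENCODE v29, GRCh38). It was present in 12.4% of 209 lower genes and 13.3% of 143 higher genes with such a region, against 9.57% of 6528 genes compared. Median lengths of the region were 1278, 1286 and 1308 bases. The shares in the lower and higher sets were thus close to each other, and no test was made.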

How the data were processed

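RNA was measured in 7 libraries, 1 per time of light, by an adapted CEL-Seq2 protocol that reads 3' ends and tags molecules with UMIs. Per the submitters' processing notes, reads were aligned with BWA to hg19. The BWA version, the annotation and the counter are not stated there. The authors deposited estimated counts per gene (reads, UMIs, and transcripts corrected for UMI collisions). Transcript counts were the values used here, from the column of primer 4, with spike-in rows dropped. The 480 min table ends at NME1-NME2, so every library was cut there and scaled on those genes by TMM (edgeR 4.0.16, R 4.3.3). Genes needed 20 counts in either library. Ratios have a prior count of 2, exact 95% Clopper-Pearson intervals (SciPy 1.17.1) and a 2-fold threshold. The calculation was tested on simulated data.

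The members and gene lists were chosen with earlier results of these data known. Named genes were the 20 with the highest lower bound, the 20 with the lowest upper bound and list members past 2-fold. The 4 most extreme members of a list were named for some lists only. Further members, the NFKBIA, HSPA5 and ASNS promoters and several motifs were chosen after values were seen. A gene that the rule names is not reported here. Alternatives were other scalings, minimums, priors, UMI and read counts, thinning to equal depth and leaving out genes over 3800 UMIs. Promoters were from RefSeq (GRCh38.p14), matched for 5536 of 7206 genes; hg19 coordinates were not used.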

Additional observations from a re-analysis of the deposited data

Results flagged for a closer look

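Spike-in RNA (ERCC), which no comparison above uses, summed to 687 transcript counts in the 240 min library, above the 3 counts that a count of 0 allows. The other libraries that list spike-ins held between 581 and 849 counts. The 480 min table, which ends before the other tables do, lists 0 spike-in rows, so a spike-in scale for 480 against 240 min was not analysed here.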

How the results depend on the processing

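No paired analysis was possible because each time has 1 library and no replicate number, so no library could be left out either. No gene at least 2-fold apart changed sign under any alternative run. Smaller ratios did: of 803 list members and genes named by their bounds, 12 with ratios over 0.1 in size changed sign with UMI counts. They were ANXA2, CANX, CCT6A, CYCS, EEF1A1, EIF2AK1, EIF4G2, ENO1, FTH1, GAPDH, HLA-C and LDHB. With read counts 7 did, CHORDC1, EIF2AK3, GBP1, H2AFJ, HBEGF, MED23 and MOG. Without a count minimum, 380 genes were higher and 458 lower at 480 than 240 min; asking that the whole interval lie past 2-fold left 64 and 89. By that stricter rule 58 of the higher and 80 of the lower genes were past 2-fold at 600 against 120 min, and 59 and 68 at 720 against 60 min. Scaling by total counts gave 151 higher and 243 lower. Genes apart in the other steps numbered 647 (60 against 0 min), 608, 559, 428 and 531 without a minimum, in order of time. With a minimum of 50 they numbered 119 at 120 against 60 min, 84 at 240 against 120 min, 26 at 600 against 480 min and 64 at 720 against 600 min. Read counts gave 120 at 600 against 480 min. List medians moved with UMI counts to 0.11 for the other translation factors, 0.35 for cytosolic tRNA synthetases, 0.09 for CCT, 0.00 for glycolytic enzymes, 0.02 for respiratory subunits and -0.07 for mesenchymal markers. Read counts gave 0.39 for CCT and 0.57 for NRF2 targets. The glial median was -0.21 with a minimum of 50, the neuronal 0.46 without one, the NF-kB -0.54 after thinning and the YAP -0.27 without genes over 3800 UMIs. The 2-fold call was lost with UMI counts for AKR1C3, CYR61, ERRFI1, GCLC, GDF15, KLF9 and MAFK, with read counts for AKR1C3 and BAX, with total counts for AKR1C3 and INCENP, and after thinning for INCENP and ITGB4. Beyond what fewer or more genes tested explain, the cause was not tested. Low counts limit the rest: 11% of genes under 20 CPM were 2-fold apart, and 1 library a side gives no error beyond counting.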
